A study of Rattus norvegicus with 9 samples.

Results

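The ribosome of the cytosol is built from ribosomal RNA and a fixed set of proteins, named Rpl for the large (60S) subunit and Rps for the small (40S) subunit. Their mRNAs are short and among the most abundant of any cell, and most begin with a run of pyrimidines (a 5′ terminal oligopyrimidine or TOP motif) through which the growth pathway of mTOR controls their translation. In neurons, ribosomes and ribosomal protein mRNAs are also found in axons and dendrites, where proteins are made far from the cell body. Ribosomal protein genes with introns have given rise to many intronless copies in mammalian genomes, and reads from such near-identical copies are hard to assign.

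The rows described here were chosen by name, that is Rpl or Rps followed by a digit, or Rplp0, Rplp1, Rplp2 or Rpsa. S6 kinases, Rps19bp1 and names marked as pseudogenes were left out, and a mean estimated count of at least 10 over the 9 libraries was required. This gave 95 of the 32623 rows of the table, covering 85 symbols, and 2 further rows with a matching name fell below the count minimum. There were 54 rows of the 60S subunit, 38 of the 40S subunit and 3 of the stalk, a flexible arm of the large subunit that contacts elongation factors. In 22 rows the genomic span was close to the transcript length, so these rows have no intron, and the other 73 have at least 1. A total of 8 symbols had more than 1 row, 18 rows in all, which are distinguished below by chromosome. All 95 rows passed the filter on low counts.

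RNA was measured in 9 bulk libraries of wild-type (WT) primary cortical neurons from embryonic day 16 to 18 Wistar rats, with 3 libraries per group. The control group received no current. The DCS group received direct current (its titles read DES) and the ACS group alternating current, each labelled as 3 µA at 20 Hz for 20 min over 7 days. Each sample was labelled as 7 days in vitro, whereas the growth protocol in the labels names a longer culture, so the age is uncertain. Nothing in the labels ties a library to a culture of its own, and p-values therefore measure only the spread between these libraries, which may be technical. In bulk RNA, fewer cells of a type and less RNA per cell cannot be told apart.

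Total estimated counts were 53910745 to 68690760 in control, 52370330 to 68133858 in DCS and 49039412 to 52938628 in ACS, so that each ACS library was shallower than each control library. The 8 neuronal markers summed to 5294 to 5880 library-scaled counts (CPM) in control, 5382 to 5647 in DCS and 5557 to 5774 in ACS. Astrocyte markers (6 rows) summed to 618 to 956 CPM in ACS and 801 to 877 in control, and the 2 measured endothelial markers stayed at or below 0.899 CPM in all libraries. The oligodendrocyte lineage (6 rows) summed to 513 to 582 CPM and microglia (6 rows) to 162 to 174 CPM over the 9 libraries. In each of 3 of these lists, 1 row was higher in ACS than in control by edgeR, namely Gfap of the astrocytes (log2 fold change 0.25, adjusted p = 0.0281), C1qa of the microglia (0.76, 0.0252) and Rbfox3 of the neurons (0.43, 0.00810). Other markers went the other way, with 2 of 6 astrocyte, 2 of 6 microglial and 3 of 8 neuronal rows below 0. The microglial Aif1 and Csf1r stood at −0.13 and −0.04, and C1qa averaged only 4.71 CPM in control and 7.98 CPM in ACS. The 7 markers of progenitors and dividing cells summed to 817 to 896 CPM in ACS, below the 941 to 995 CPM of control and the 903 to 945 CPM of DCS. Of the 7, 3 (Hes5, Mki67 and Vim) passed the test as lower in ACS than in control, where 1.33% of all genes did. The log2 fold change was below 0 in 5 of the 7 markers and above 0 in the others. The part of depth and of these cells in the results below was not tested.

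Start regions from RefSeq (rat GRCr8) could be matched by symbol and chromosome for 54 of the 73 rows with introns. A pyrimidine run, taken as a C followed by at least 7 further C or T on the gene's strand within 20 bases of the annotated start, was found in 34 of the 54 (63.0%) and in 16.0% of the 27457 start regions in the table. With either pyrimidine allowed as the first base, a definition chosen after seeing the data, the shares were 39 of 54 (72.2%) and 20.9%. The letters CCGGAAG, searched on both strands over 300 bases, were present in 17 (31.5%) of these members and in 9.22% of all regions. TATAAA in the 250 bases before the start was present in 4 (7.41%) of the members and in 8.38% of all. These are matches of letters near annotated starts, which can be inexact.

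The 8 windows shown run from 30 bases before to 20 bases after the annotated start, with the pyrimidine run in capitals. Rpl18 (chr1:105325240-105325289, plus strand) and Rps9 (chr1:74430418-74430467, minus strand) passed a test below, and neither window holds a run by the first definition, although Rps9 has a stretch of 9 pyrimidines that begins with T. Rpsa (chr8:128728849-128728898, plus strand) had the highest level of all members and likewise has only a stretch of 8 that begins with T. Rplp0 (chr12:46718371-46718420, minus strand), Rps2 (chr10:14251818-14251867, plus strand), Rpl35 (chr3:43165902-43165951, minus strand) and Rps23 (chr2:23814487-23814536, plus strand) were among the highest members and hold one, as does Rpl10 (chrX:157205820-157205869, plus strand).
Rpl18: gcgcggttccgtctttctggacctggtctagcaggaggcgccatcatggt
Rps9: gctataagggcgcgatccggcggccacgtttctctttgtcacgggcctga
Rpsa: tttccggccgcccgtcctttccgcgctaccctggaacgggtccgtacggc
Rplp0: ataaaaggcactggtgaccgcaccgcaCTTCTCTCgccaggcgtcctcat
Rps2: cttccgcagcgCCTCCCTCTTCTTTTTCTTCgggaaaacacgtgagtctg
Rpl35: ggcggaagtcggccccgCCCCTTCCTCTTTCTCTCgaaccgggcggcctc
Rps23: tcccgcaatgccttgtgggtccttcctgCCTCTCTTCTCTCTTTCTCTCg
Rpl10: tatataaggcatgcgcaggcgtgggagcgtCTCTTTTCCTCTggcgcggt

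The level of the 95 rows, in fragments per kilobase scaled to library size (FPKM) and averaged over the 9 libraries, had a median of 219, against 7.85 for all 16284 tested genes. A total of 68 rows exceeded 100 FPKM, 6 lay under 10 FPKM and 79 were in the top 10% of tested genes. Among rows with introns the median was 278 FPKM, with the middle of the distribution (quartiles) between 153 and 411 FPKM, and the subunits did not stand apart, with medians of 270 FPKM for the 41 rows of the 60S and 278 FPKM for the 29 rows of the 40S. Rows without introns had a median of 33.5 FPKM.

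The highest levels were those of Rpsa, a small-subunit protein that is also known as the laminin receptor, at 846 FPKM, Rpl41, the shortest ribosomal protein, at 767 FPKM, and Rplp0, the base of the stalk, at 735 FPKM. Rps2 followed at 633 FPKM, Rpl23a at 579, Rpl35 at 578, Rps23 at 518 and Rpl27 at 506 FPKM. The lowest member was Rpl39l, a paralog of Rpl39 known from the testis, at 1.39 FPKM, followed by Rpl10l, the testis paralog of Rpl10, at 2.31 FPKM. Rpl10 itself stood at 499 FPKM. Other paralogs lay between, with Rpl22l1 at 23.7 FPKM, the p53-responsive Rps27l at 36.7 FPKM and Rpl7l1 at 75.6 FPKM. The length that count and FPKM imply had a median of 612 bases over the members and 2245 bases over all tested genes. It exceeded 2000 bases in 6 members (up to 5144 bases in Rpl7), and the FPKM of these is low relative to a row of a short mRNA.

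**Figure D1:**
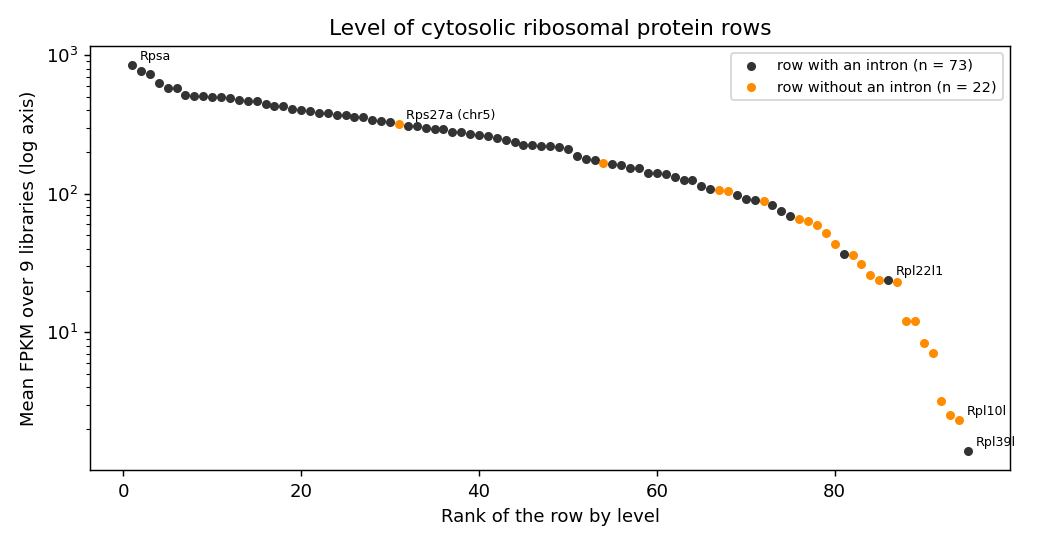
Mean FPKM over the 9 libraries (log axis) for each of the 95 ribosomal protein rows, ordered by level. Black points are the 73 rows with an intron and orange points the 22 rows without, which fill most of the low end. The highest row is Rpsa at 846 FPKM and the lowest Rpl39l at 1.39 FPKM.

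Within groups, rows with introns varied little. Their median standard deviation (SD) of log2 CPM within groups was 0.0721, against 0.129 for all tested genes and 0.0840 for the other genes with a mean count of at least 1000. Rows without introns had a median SD of 0.190.

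Together the 95 rows held 1.89%, 1.88% and 1.92% of all counts in the control libraries. The share was 1.98%, 2.06% and 1.94% in the DCS libraries and 1.83%, 1.86% and 1.76% in the ACS libraries. The 3 groups did not overlap, with DCS highest and ACS lowest, and the group means were 1.896% ± 0.0214 in control, 1.992% ± 0.0638 in DCS and 1.817% ± 0.0535 in ACS (SD, n = 3). As a share of summed FPKM the values were 4.89% to 5.09% in control, 5.16% to 5.45% in DCS and 4.67% to 4.94% in ACS, and here ACS replicate 2 overlapped with control. In rows with introns, the ratio of summed 40S to summed 60S FPKM was 0.662 to 0.702 over the 9 libraries. The stalk was counted with the 60S here, and the groups did not separate. The 13 mitochondrially encoded rows, which take up a share of the same counts, held 5.56% to 6.80% in control, 5.25% to 5.77% in DCS and 5.54% to 5.96% in ACS. Their part in the shares of the ribosomal proteins was not tested.

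By library, the median deviation of the rows with introns from their own mean over all libraries was 0.0912, 0.0997 and 0.00540 on the log2 scale in the 3 DCS libraries. It was −0.0372, −0.0319 and −0.107 in the 3 ACS libraries and between −0.00832 and 0.0143 in control. DCS replicate 3 was thus close to the control libraries and ACS replicate 3 the lowest of all.

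**Figure D2:**
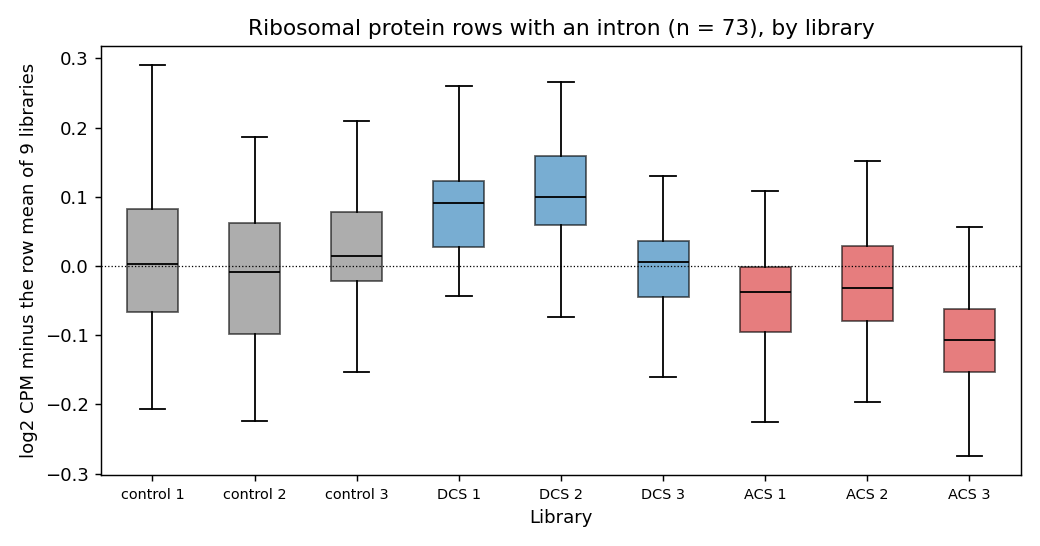
Deviation of log2 CPM from the row's mean over 9 libraries (y axis) for the 73 rows with an intron, by library (x axis). Boxes span the quartiles with the median as a line, whiskers reach the last value within 1.5 box lengths and points beyond are not drawn. DCS replicates 1 and 2 sit highest, at medians of 0.0912 and 0.0997, and ACS replicate 3 lowest, at −0.107.

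The first comparison asked how ACS differed from control. By edgeR's quasi-likelihood test with Benjamini-Hochberg adjustment over all 16284 genes, 5 of 95 rows passed an adjusted p of 0.05, against a background of 4.16% of all genes, so the share of members called was close to that of genes at large. Lower in ACS were 4 rows, among them Rpl18, Rps9 and Rpl39, against a background of 1.33% for that direction, and 1 row, Rpl32 (chr6), was higher, against 2.83%. The number called was 0 without control replicate 1, control replicate 2 or ACS replicate 2, 1 without DCS replicate 1, DCS replicate 2 or ACS replicate 1, 2 without ACS replicate 3 and 9 without control replicate 3 or DCS replicate 3. The calls over all genes moved as well, from 678 in the main fit to between 138 (without control replicate 2) and 1431 (without control replicate 3). The median log2 fold change was −0.08 over the 95 rows (65 below 0) and 0.00 over all tested genes (50.5% below 0). It was −0.05 without ACS replicate 3. Rows with introns had a median of −0.08 and those without −0.06. Other genes with an implied length under 1000 bases and a mean count of at least 1000 (499 genes) had a median of 0.01 (48.7% below 0). Control and ACS libraries did not overlap in 38 members, 32 of them lower in ACS and 6 higher, against a background of 27.1% (13% lower and 14% higher). At an unadjusted p of 0.05, 23 members were lower and 7 higher, 30 in all, where 20.8% of all genes passed (10% lower, 10.8% higher). DESeq2 called 16 members, 13 lower and 3 higher, against a background of 12% for that tool.

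Rpl18, a 60S protein (chromosome 1, 101701975 to 101703550, plus strand in the table, which names no build), had 189, 188 and 182 CPM in control and 188, 193 and 178 CPM in DCS. In ACS it had 163, 153 and 152 CPM. All ACS libraries thus lay below all others, while control and DCS overlapped. The log2 fold change of ACS against control was −0.25 ± 0.05 (SE, adjusted p = 0.0182, edgeR). The adjusted p rose above 0.05 without control replicate 1, control replicate 2, ACS replicate 2 or ACS replicate 3, and ranged from 0.0120 to 0.0861 as single libraries were left out.

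Among the 40S proteins, Rps9, which binds early in the assembly of the small subunit, had 328, 335 and 311 CPM in control, 314, 317 and 293 in DCS and 289.5, 283 and 260 CPM in ACS. ACS lay below control in all libraries (log2 fold change −0.23 ± 0.05, SE, edgeR adjusted p = 0.0449). The call was lost without control replicate 1 or 2, DCS replicate 1 or 2, or any ACS replicate, with an edgeR adjusted p of up to 0.162. With an offset for transcript length it stood at adjusted p = 0.0652 (edgeR).

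Rpl39 and Rpl32 (chr6) have no intron and carry few reads. The row named Rpl39 lies on chromosome 14 (33030959 to 33031282, minus strand) and had 13.7, 12.2 and 11.03 CPM in control, 11.9, 11.2 and 9.93 in DCS and 7.63, 7.00 and 9.22 CPM in ACS (log2 fold change −0.63 ± 0.14, SE, edgeR adjusted p = 0.0358). Rpl32 (chr6) (145777318 to 145777767, minus strand) had 8.19, 8.07 and 9.99 CPM in control, 11.15, 11.85 and 10.99 in DCS and 14.9, 12.5 and 11.95 CPM in ACS (0.58 ± 0.12, SE, edgeR adjusted p = 0.0318). Rpl39 fell and Rpl32 (chr6) rose without overlap between ACS and control, and both calls were lost without control replicate 1 or 2, DCS replicate 1 or 2, or ACS replicate 1 or 2. Summed with the second row of its symbol, Rpl32 had 195 to 207 CPM in control and 186 to 201 CPM in ACS, which overlap, and the division of reads between these rows is uncertain.

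**Figure D3:**
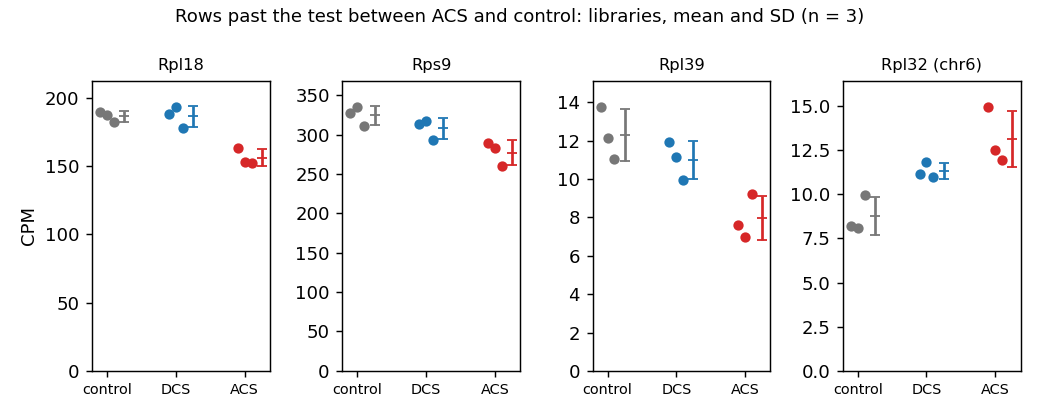
CPM (y axis, from 0) of 4 rows that passed the test between ACS and control, in the control, DCS and ACS libraries (points), with the mean and SD of 3 libraries beside them. In each panel the ACS libraries lie to the same side of all control libraries, lower in Rpl18, Rps9 and Rpl39 and higher in Rpl32 (chr6).

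Next in order of p, without passing the threshold, were 6 rows with an edgeR adjusted p between 0.0590 and 0.0818. Rps4x (X), the X-linked small-subunit protein that escapes X inactivation in humans, had 463, 463 and 411 CPM in control and 393, 378 and 384 CPM in ACS (log2 fold change −0.21 ± 0.05, SE, edgeR adjusted p = 0.0590). The intronless Rps29 row had 2.99, 2.65 and 3.41 CPM in control and 4.36, 5.96 and 4.42 CPM in ACS (0.70 ± 0.20, SE, edgeR adjusted p = 0.0791). The other 4 were Rpl8, Rpl26, Rpl21 (X) and Rpl7, with log2 fold changes of −0.19, −0.15, −0.39 and −0.16. Farther from the threshold was the intronless row of Rpl38, a protein known for its role in the translation of Hox mRNAs. In that row the ACS values were 8.22, 8.21 and 22.2 CPM against 7.22, 7.10 and 7.41 CPM in control, so that ACS replicate 3 alone carried most of the log2 fold change of 0.83 ± 0.33 (SE, edgeR adjusted p = 0.188).

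The second comparison, DCS against control, gave 0 of 95 called rows by edgeR, against a background of 0.0123%, and DESeq2 also called 0, where it called 0.234% of all genes. At an unadjusted p of 0.05, 15 rows were higher in DCS and 1 was lower, 16 in all, where 7.09% of all genes passed (4.03% higher, 3.05% lower). The median log2 fold change was 0.06 (26 below 0), beside 0.00 for all genes (49.1% below 0). For the 499 short and abundant others it was 0.05, with 34.1% below 0. With the offset for transcript length the median of the members was 0.02. The libraries of the groups did not overlap in 12 rows that were higher and 3 that were lower in DCS, 15 rows in all, against a background of 11.1% (5.59% higher, 5.51% lower).

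Several of the most abundant rows were higher in each DCS library than in each control library. Rpl41 had 340, 322 and 349 CPM in control, 390, 397 and 357 in DCS and 337, 343 and 332 CPM in ACS, so DCS lay above both other groups in each library (log2 fold change against control 0.18 ± 0.05, SE, edgeR adjusted p = 0.692). Rps23, a protein of the decoding centre, had 254, 245 and 276 CPM in control and 296, 304 and 278 CPM in DCS (0.18 ± 0.06, SE, the same adjusted p). Rpl35, at the exit of the peptide tunnel, had 244, 243 and 261 CPM in control and 290, 284 and 269 CPM in DCS (0.17 ± 0.05). Rps2, Rpl23a and Rpl27 also had no overlap, with log2 fold changes of 0.16, 0.15 and 0.14. Larger differences were found in rows of lower level or with several copies, from −1.32 ± 0.76 in the second copy of Rpl35al1 and −0.48 in both Rps10l1 and Rps27a (chr14) to 0.60 ± 0.84 in Rpl21 (chr3) (SE). The intronless Rps18l1 had 12.1, 11.2 and 11.6 CPM in control and 19.1, 16.7 and 13.7 CPM in DCS (0.51 ± 0.13, SE, edgeR adjusted p = 0.692). None of these passed the test.

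The third comparison set ACS against DCS, which share no libraries with each other but share them with the comparisons above, so the 3 sets of values are not independent. One row was called, Rpl18, with a log2 fold change of −0.25 ± 0.05 (SE, edgeR adjusted p = 0.0449), against a background of 0.633%. That call was lost in each fit that left out 1 library other than control replicate 3 or DCS replicate 3 (adjusted p up to 0.171) and with the offset for length (0.0857). Without DCS replicate 3 the count was 3, in a fit that called 67 of all genes, beside 103 in the main fit. DESeq2 called 12 members, all lower in ACS, against a background of 4.85%. The median over the 95 rows was −0.12 (80 below 0), beside 0.00 for all genes (50.6% below 0). For the 499 short and abundant others it was −0.06, with 68.9% below 0. At an unadjusted p of 0.05 (edgeR), 37 of the 95 rows were lower and 1 was higher, where 6.66% of all genes were lower and 7.22% higher. In rows with introns, 67 of 73 were below 0, with a median of −0.13, and 33 were lower and 0 higher at that p. In rows without introns, 13 of 22 were below 0, and 4 were lower and 1 higher. The groups did not overlap in 39 members, 37 lower and 2 higher in ACS, where the background was 21.4% (10.2% lower, 11.2% higher).

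**Figure D4:**
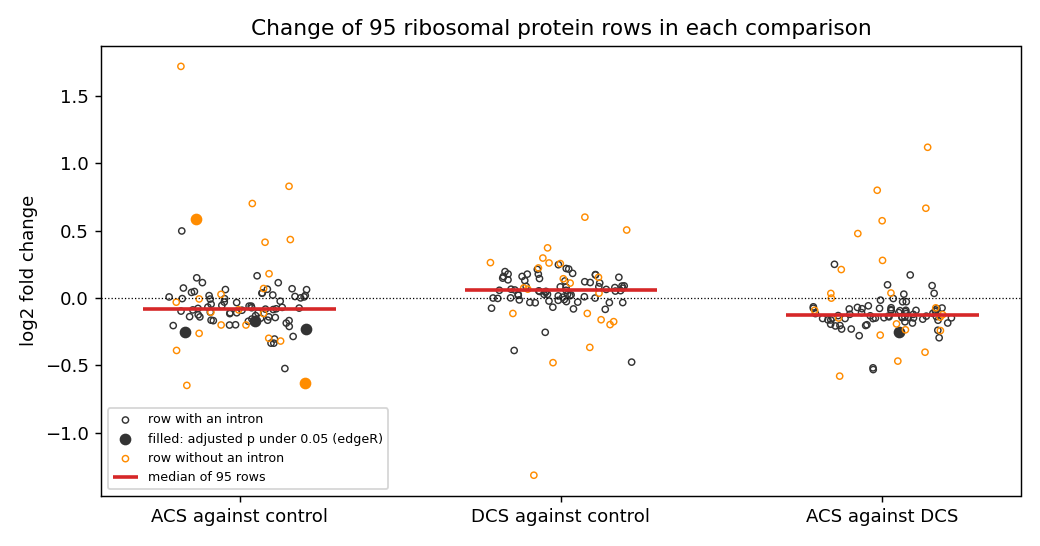
Log2 fold change (y axis) of the 95 rows in the 3 comparisons (x axis, points spread sideways for sight). Orange points have no intron, filled points passed an edgeR adjusted p of 0.05, and red lines mark the medians of −0.08, 0.06 and −0.12. The rows without introns are the more scattered in each comparison.

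Start regions with and without a pyrimidine run were set side by side. In ACS against control, the 34 members with a run had a median log2 fold change of −0.06 (20 below 0) and the 20 without a median of −0.14 (18 below 0). In DCS against control the medians were 0.06 and 0.01, and in ACS against DCS −0.11 and −0.13. These are descriptions of the matched rows, and the difference between them was not tested.

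By subunit, the median in ACS against control was −0.08 for both the 54 rows of the 60S and the 38 of the 40S. In ACS against DCS it was −0.12 and −0.13. The stalk proteins showed different patterns. Rplp0 had 753, 772 and 883 CPM in control, 847, 933 and 829 in DCS and 822, 852 and 796 CPM in ACS, with all groups overlapping. Rplp1 had 192 to 226 CPM in control, 219 to 238 in DCS and 183 to 209 CPM in ACS, and DCS and ACS did not overlap (log2 fold change −0.23 ± 0.07, SE, edgeR adjusted p = 0.170). Rplp2 had 39.7 to 40.1 CPM in control, but 36.4, 16.7 and 38.3 in DCS and 7.69, 36.0 and 39.6 CPM in ACS. DCS replicate 2 and ACS replicate 1 were thus far below the other libraries, and the log2 fold change of ACS against control was −0.52 ± 0.49 (SE, edgeR adjusted p = 0.588).

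None of the 17 rows for members known for roles beside the ribosome passed the test in any comparison. Over all genes, 4.16% passed in ACS against control, 0.0123% in DCS against control and 0.633% in ACS against DCS. At such shares, 0 of 17 does not set these rows apart from genes at large. Their median log2 fold change in ACS against control was −0.05 (10 below 0), and single rows ran from −0.30 in Rps27a (chr14) to 0.83 in Rpl38. Rpl5 and Rpl11, which with the 5S RNA bind Mdm2 and hold back the degradation of p53, had log2 fold changes in ACS against control of −0.12 ± 0.05 and −0.07 ± 0.04 (SE, edgeR adjusted p = 0.213 and 0.396). Rpl5 had 405, 411 and 393 CPM in control and 371, 371 and 366 CPM in ACS, with no overlap. Rpl23, also a partner of Mdm2, stood at −0.09 ± 0.04 (edgeR adjusted p = 0.276). Rps6, the substrate of the S6 kinases downstream of mTOR, had 170, 212 and 165 CPM in control, 195, 194 and 191 in DCS and 177, 190 and 187 CPM in ACS, with a log2 fold change of 0.02 ± 0.08 in ACS against control. Rps3, which also acts in DNA repair, stood at −0.07 ± 0.05 and Rpl13a, a translational repressor once released from the ribosome, at −0.11 ± 0.04 (edgeR adjusted p = 0.413 and 0.143). Rpsa and Rpl10 had log2 fold changes of −0.02 ± 0.05 and −0.10 ± 0.05.

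Paralogs did not pass the test in any comparison. Rpl10l had 1.78, 1.51 and 1.35 CPM in control and 1.37, 1.15 and 1.20 CPM in ACS (log2 fold change −0.32 ± 0.22, SE). Rpl22l1 had 12.8 to 16.8 CPM in control and 13.1 to 14.1 CPM in ACS. Rpl7l1, a nucleolar protein related to Rpl7, had 59.0 to 62.4 CPM in control and 53.8 to 56.9 CPM in ACS without overlap (−0.14 ± 0.06, SE, edgeR adjusted p = 0.184). Rps27l stood at −0.14 ± 0.07 (edgeR adjusted p = 0.302).

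Several symbols with more than 1 row varied less in sum than row by row. Rps27a, which is made as a fusion with ubiquitin, has an intron-bearing row on chromosome 14 and an intronless row on chromosome 5. The first had 170, 259 and 193 CPM in control, 149, 141 and 157 in DCS and 146, 132 and 227 CPM in ACS. The second had 225, 127 and 147 CPM in control, 201, 201 and 196 in DCS and 206, 195 and 106 CPM in ACS, high where the first was low. Their sum was 340 to 395 CPM in control, 342 to 353 in DCS and 327 to 352 CPM in ACS, and its coefficient of variation (CV) over the 9 libraries was 6.51%, against 23.0% and 24.7% for the rows. The division of counts between these copies is uncertain.

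The same held for Rps19l2, where the sum of both rows had a CV of 6.24% and the single rows 21.7% and 22.3%. In Rpl21, with 4 rows, the sum had a CV of 10.3% and the rows between 14.1% and 110%. Rpl7a, whose copies on chromosome 3 moved together, was no steadier in sum than row by row. The first copy had 94.2, 78.4 and 101 CPM in control, 99.5, 112 and 98.8 in DCS and 78.1, 53.3 and 85.4 CPM in ACS, and the CV of the sum was 19.5%. Its log2 fold change was −0.52 ± 0.16 in ACS against DCS (SE, edgeR adjusted p = 0.173), with ACS replicate 2 well below the other ACS libraries. The copies of Rpl35al1 stayed below 10 CPM, with single libraries several times above the rest and a CV of 78.9% for the sum, against 76.1% and 98.3% for the rows.

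**Figure D5:**
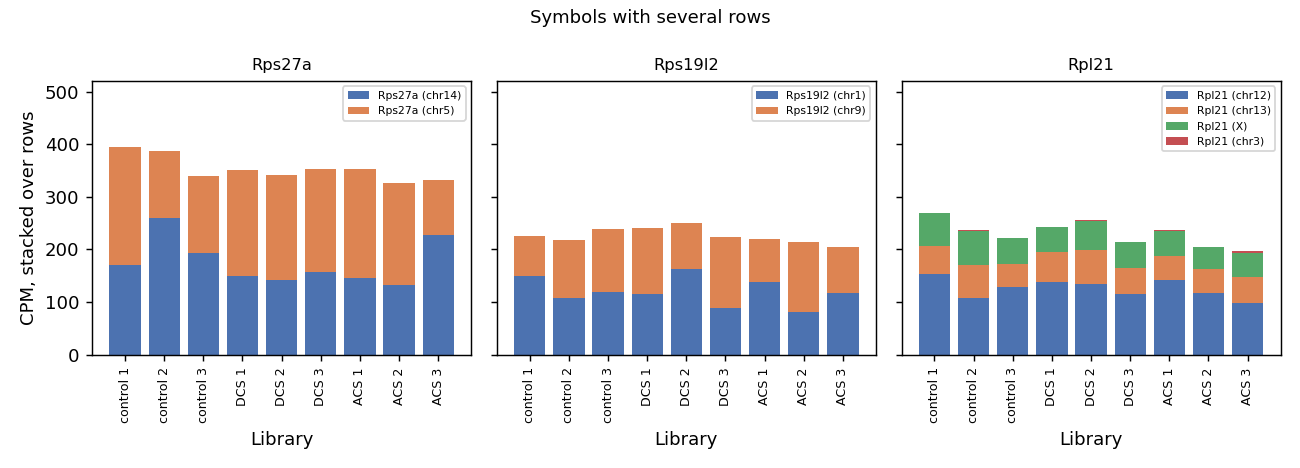
CPM stacked over the rows of a symbol (y axis, from 0) in each library (x axis) for Rps27a, Rps19l2 and Rpl21, with colours for the rows. For Rps27a the total stays between 327 and 395 CPM while the split between the row on chromosome 14 and that on chromosome 5 changes from library to library.

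Other genes of translation were described from lists that were chosen with earlier results of these data known. Of 18 other mRNAs with a TOP motif, 2 were lower in ACS than in control and 0 higher, where 1.33% of all genes were lower and 2.83% higher, with a median log2 fold change of −0.11. Both are known TOP mRNAs, Eef1b2, a nucleotide exchange factor of elongation (−0.20 ± 0.05, SE, edgeR adjusted p = 0.0447), and Tpt1, the translationally controlled tumour protein (−0.16 ± 0.03, SE, edgeR adjusted p = 0.0352). Eef1b2 was also the only one of 12 elongation and termination factors to pass, and Eef1a1, the most abundant of them, stood at −0.08 ± 0.05 (edgeR adjusted p = 0.417). None of 34 initiation factors passed (median −0.08), and Eif4a1 and Eif4g2 stood at −0.01 and 0.00.

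Of 58 rows for ribosome biogenesis, 4 were lower in ACS than in control and 0 higher (background 1.33% lower and 2.83% higher), with a median of −0.06 (41 below 0). These were Ddx10, a helicase of small-subunit assembly (30.3 ± 0.379 CPM in control and 24.1 ± 1.56 in ACS, SD, n = 3), Polr1c, a subunit of RNA polymerases I and III (34.6 ± 2.59 and 26.7 ± 1.09 CPM), Fbl, the methyltransferase fibrillarin (75.3 ± 1.27 and 65.4 ± 0.683 CPM), and Bysl (35.6 ± 0.851 and 29.7 ± 1.49 CPM), with edgeR adjusted p between 0.0251 and 0.0417. Among 19 regulators of TOP mRNAs and ribosome synthesis, 2 were higher in ACS and 0 lower, against the same background. Myc, a transcription factor that drives ribosome synthesis, had 47.2 ± 1.49 CPM in control and 63.5 ± 5.75 CPM in ACS, and Rps6kb2, an S6 kinase, had 20.2 ± 1.71 and 30.9 ± 1.92 CPM (SD, n = 3, edgeR adjusted p = 0.0223 and 0.0104). The mitochondrial ribosomal proteins (74 rows) had 0 called in either direction and a median of −0.06 (55 below 0). Their median was 0.04 in DCS against control (21 below 0) and −0.09 in ACS against DCS (58 below 0). None of these lists had a called gene in DCS against control or in ACS against DCS, where 0.0123% and 0.633% of all genes were called. In ACS against DCS, the medians were −0.10 for the 18 other TOP mRNAs (15 below 0) and −0.07 for the 58 biogenesis rows (41 below 0). In DCS against control both medians were −0.01 (9 and 33 below 0).

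Other ribosomal proteins outside the naming rule were also measured. The main row of Rack1, the scaffold on the small subunit, had 432 ± 29.8 CPM in control, 447 ± 16.7 in DCS and 403 ± 3.19 CPM in ACS (SD, n = 3). Fau, a ubiquitin-like fusion of a small-subunit protein, varied widely, with 56.4 ± 49.6, 32.2 ± 19.2 and 49.5 ± 34.9 CPM. Neither passed the test in any comparison.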

How the data were processed

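Polyadenylated RNA of 9 libraries (3 per group) was sequenced. The authors trimmed and aligned the reads and quantified them with StringTie, and their paper and labels differ on the trimming tool. The labels name HISAT2 2.0.4 and StringTie 1.3.4d. The deposited FPKM values scale fragments to exon length and to the mapped reads of the library. The estimated counts (expected counts) deposited beside them were made by the authors with StringTie and are whole numbers. The paper names GRCh38, a human build, for the rat reference, and no build is given in the table.

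From the estimated counts, edgeR 4.0.16 (R 4.3.3; TMM scaling, filterByExpr with a minimum count of 10, quasi-likelihood F-test, all 9 libraries in 1 fit) was used for each comparison over 16284 rows, with Benjamini-Hochberg adjustment. Of the table, 16339 rows were removed by the filter. CPM used the same scaling. The fits were tested on simulated data with known changes in ACS. Among changed genes with a mean count of at least 1000, edgeR called 1 of 38 at a log2 change of 0.25. It called 19 of 35 at 0.5 and 37 of 38 at 1. Most changes of 0.25 were thus missed, so a row that did not pass can still differ between groups. The alternatives were DESeq2 1.42.0, limma 3.58.1 on log2(FPKM + 1), other scalings and filters, an offset for length, counts divided by 4 in case a fragment adds about 4, and each library left out. Implied lengths came from count over FPKM, calibrated on 64 processed pseudogenes. The precision of a value rests on the totals per library and covers counting error and spread between libraries.

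The members and lists were chosen with earlier results of these data known. Named members were those called (up to 20), the 5 largest and 5 smallest changes per comparison, the 8 highest and 8 lowest levels, the paralogs, the stalk and the genes with roles beside the ribosome, and of the other lists those called or the 2 highest. Rps19l2, Rpl7, Rpl8, Rpl26, the marker genes and the rows of Rpl21 on chromosomes 12 and 13 fall outside that rule and were chosen after their values were seen. Replicate numbers were not used to pair the libraries in the main fit. Rpl22, Rps14, Rps19 and Rps26 were not analysed here, and the values of some other genes are not reported here. The authors' own comparisons were not used.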

Additional observations from a re-analysis of the deposited data

Results flagged for a closer look

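Rpl18 was singled out because its response to the type of current differed by a test of the difference itself: alternating current against direct current gave a log2 fold change of −0.25 (edgeR adjusted p = 0.0449), with 0.00 in DCS against control. All 3 ACS libraries lay below all 3 DCS libraries. Leaving out single libraries raised the adjusted p above 0.05 in all cases but those of control replicate 3 and DCS replicate 3 (up to 0.171).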

How the results depend on the processing

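Over 4531 pairs of a named gene's result and an alternative, 107 lost the threshold and 29 gained it. Only a result past the threshold in the main fit could lose it, and most named genes had none. The 107 losses therefore came from a small part of the 4531 pairs, and their share of all pairs does not measure how stable the calls were. The sign changed in 160 pairs, in 0 of which either fit passed the threshold. In ACS against control, 5 members were called. DESeq2 called 16 (3 higher, 13 lower), the 6 libraries alone 1 and the members with an intron 3 (chosen after seeing the data). Over all genes, 678 were called in the main fit, 1652 by DESeq2 and 481 by the 6 libraries alone. With single libraries left out, the count of members ran from 0 to 9, and that of all genes from 138 to 1431. The median log2 fold change of the members then ran from −0.0928 to −0.0465 (the latter without ACS replicate 3). In ACS against DCS, where 1 member was called, DESeq2 gave 12, the offset for length 0, the 6 libraries alone 0, and leaving out single libraries 0 to 3. Over all genes that comparison gave 103 calls in the main fit, 650 by DESeq2, 79 with the offset and 85 in the 6 libraries alone. With single libraries left out it gave 27 to 184. DCS against control stayed at 0 members called under each alternative. The median of the members there was 0.0189 with the offset for length and 0.0354 to 0.0813 with single libraries left out. The median in ACS against DCS ran from −0.15 to −0.10 with single libraries left out. As a share of summed FPKM the members held 4.96% in control, 5.27% in DCS and 4.81% in ACS, and without the -like paralogs their share of counts was 1.86% in control (1.95% in DCS, 1.78% in ACS). The cause of these shifts was not tested.

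With the replicate block, 3 members were called in ACS against control and 0 in ACS against DCS. Over all genes that fit called 475 and 59, beside 678 and 103 in the main fit. Same-numbered libraries correlated in their deviations at −0.0532 to 0.0631, and libraries of different numbers at −0.061 to 0.0416. Correlations this small cannot show whether libraries of the same number share a culture. Not every library correlated best with its own number. Precision is limited for rows below 10 CPM, where 1 library can carry a fold change, as in the Rpl38 row.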
